A study of Homo sapiens with 3 samples.

Results

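ABC transporter genes were examined in 5637P, an established human bladder cancer cell line, and in 5637GR, its gemcitabine-resistant derivative. The members were the protein-coding genes of the deposited table whose symbol is ABC followed by a subfamily letter from A to G and a number. The rule used no measured value and found 42 genes of 29960 rows. ABC proteins known by other symbols (CFTR, TAP1 and TAP2) are given separately, and ABCB1, ABCA8 and ABCC12 were not analysed here.

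The 3 libraries analysed here are the 5637P library Parental 1 (genotype WT) and the 5637GR libraries Resistant 1 and Resistant 2 (genotype Gemcitabine Resistant), all labelled untreated and grown in RPMI medium with serum. By the study's methods each library is 1 single-cell clone, resistance was built up by repeated exposure to gemcitabine and recovery, and the resistant cells were then kept without the drug, whereas the treatment protocol in the labels calls the exposure acute. Reads counted on genes were 14475531, 15836788 and 17461941. With 1 parental clone, the spread in every test below comes from the 2 resistant clones, and the parental clone was assumed to vary like them. For each gene this spread is drawn largely from all genes tested rather than from its own 2 values. The authors' group means of normalized counts carry no SD and cover these 3 libraries together with others not analysed here, so they are printed as values only, and a gap between them and the 3 libraries compares unlike sets of libraries. Epithelial markers were high in all 3 libraries (KRT19 at 3594 to 4783 CPM and EPCAM at 285 to 338 CPM). Markers of blood cells summed to 0.230 to 0.490 CPM and ALB had 0, 0 and 1 reads, while the fibroblast collagen COL1A1 was present at 61.2 to 113 CPM with LUM at 0 reads. Of 11 urothelial markers tested, 1 passed, the basal keratin KRT5. It fell from 271 CPM in Parental 1 to 9.79 and 13.8 CPM in the resistant libraries (edgeR quasi-likelihood test, adjusted p = 0.0022). The group means of KRT5 were 11543.7 normalized counts in 5637P and 2047.2 in 5637GR. Their log2 ratio was -2.49, against a log2 fold change of -4.52 in the edgeR fit.

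ABC proteins bind and hydrolyse ATP in a conserved cassette, and most of them use it to move a substrate across a membrane. Subfamily A and much of subfamily G move lipids and sterols, subfamily C holds the multidrug resistance proteins that export organic anions and drug conjugates, subfamily D works in peroxisomes and lysosomes, and subfamilies E and F have no membrane part and act on ribosomes. Gemcitabine is a cytidine analogue that becomes phosphorylated inside cells. Several members of subfamily C are known to export nucleotides or nucleotide analogues, among them ABCC4, ABCC5 and ABCC11.

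Promoter sequences differ widely among the members, and the 4 printed below were chosen with their levels in these libraries known. RefSeq windows (build GRCh38.p14) that run from 250 bases before to 50 bases after a gene's start were matched for 33 of the 42 members by symbol. ABCC1 and ABCC3 were among the members without a matched window. The 250 bases before the start are printed 5′ to 3′ on the gene's strand, with each CpG in capitals, for 4 genes: ABCF3, which had similar levels in all libraries, ABCC4, which was lower in both resistant libraries, ABCA13, which was higher in both, and ABCB11, which had 1 read in each library.
ABCF3 (chr3:184185949-184186198, plus strand): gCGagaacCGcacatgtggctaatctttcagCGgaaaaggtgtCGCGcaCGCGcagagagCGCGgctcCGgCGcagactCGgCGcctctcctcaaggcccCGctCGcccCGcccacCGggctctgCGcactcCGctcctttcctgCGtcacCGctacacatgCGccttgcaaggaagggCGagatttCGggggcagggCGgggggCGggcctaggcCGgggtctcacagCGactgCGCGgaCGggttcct
ABCC4 (chr13:95301452-95301701, minus strand): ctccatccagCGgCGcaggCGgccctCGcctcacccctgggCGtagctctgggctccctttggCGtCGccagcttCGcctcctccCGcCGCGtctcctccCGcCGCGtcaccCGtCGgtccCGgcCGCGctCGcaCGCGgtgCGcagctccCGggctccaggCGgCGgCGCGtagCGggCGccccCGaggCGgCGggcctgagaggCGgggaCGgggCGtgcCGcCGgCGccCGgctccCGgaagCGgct
ABCA13 (chr7:48171208-48171457, plus strand): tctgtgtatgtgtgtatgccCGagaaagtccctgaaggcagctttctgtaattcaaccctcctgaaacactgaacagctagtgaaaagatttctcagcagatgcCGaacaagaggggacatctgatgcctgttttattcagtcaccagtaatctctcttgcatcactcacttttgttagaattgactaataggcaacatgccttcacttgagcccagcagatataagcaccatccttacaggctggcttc
ABCB11 (chr2:169031325-169031574, minus strand): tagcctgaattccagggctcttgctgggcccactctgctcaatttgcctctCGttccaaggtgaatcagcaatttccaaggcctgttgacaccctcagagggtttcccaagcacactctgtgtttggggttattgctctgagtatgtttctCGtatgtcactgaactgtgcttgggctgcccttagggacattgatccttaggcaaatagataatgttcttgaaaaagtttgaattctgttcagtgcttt
The ABCF3 stretch held 31 CpGs and the ABCC4 stretch 42, against 2 each in ABCA13 and ABCB11.

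Among members with at least 30 counts over the 3 libraries, 23 had a window, and their median ratio of observed to expected CpG was 0.782, against 0.351 for the 6 members with 3 reads or fewer in every library and 0.580 for all 27305 windows. The classes overlapped, from 0.0568 to 1.06 in the first and from 0.0847 to 0.976 in the second. ABCC9, a sulfonylurea receptor subunit of potassium channels, had a ratio of 0.976 with 0, 0 and 1 reads. The GC box GGGCGG, searched on both strands, was found in 14 of the 23 windows (60.9%), in 3 of the 6 windows and in 44.6% of all windows. The ABCC4 window held none, although its GC content was 79.7%. These matches describe letters in a window and were not tested against expression.

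**Figure D1:**
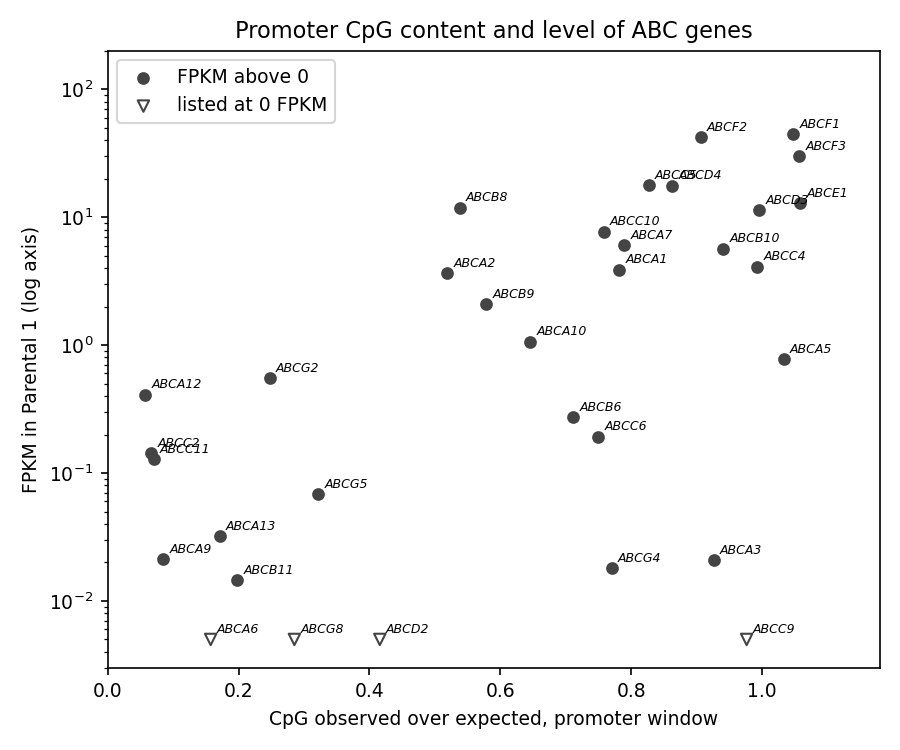
Each point is 1 of 33 ABC genes, with the ratio of observed to expected CpG in its 300-base RefSeq promoter window on the x axis and its FPKM in Parental 1 on a log y axis, and open triangles are genes listed at 0. The 3 ABCF genes and ABCE1 sit at the upper right with ratios of 0.906 to 1.06, while ABCA13 (0.171) and ABCB11 (0.198) are at the lower left. ABCA3 (0.926) and ABCA5 (1.03) have ratios in the same high range at only 0.0209 and 0.782 FPKM.

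Of the 42 members, 29 reached a sum of 30 reads over the 3 libraries and entered the tests across 14846 genes. Another 5 (ABCA3, ABCA4, ABCA6, ABCC11 and ABCG5) had 8 to 10 reads in all, and 8 had 3 reads or fewer in every library. The last group held the bile salt pump ABCB11, the sulfonylurea receptors ABCC8 and ABCC9, the sterol transporters ABCG4 and ABCG8, the peroxisomal ABCD2, and ABCA9 and ABCB5. In Parental 1, Resistant 1 and Resistant 2, 3 reads stand for 0.213, 0.184 and 0.173 CPM, and below this level a gene's absence could not be told from low depth.

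Per length, the highest levels belonged to 2 multidrug resistance proteins and to the ribosome-associated ABCF group. ABCC1, an exporter of glutathione conjugates, was at 49.0 FPKM in Parental 1 and at 46.6 and 45.0 FPKM in Resistant 1 and 2. ABCF1, which takes part in translation initiation, was at 44.6, 59.1 and 52.1 FPKM, and ABCF2 was at 42.1, 44.6 and 41.2 FPKM. The range of ABCF1 over the libraries overlapped those of both others, while ABCC1 was above ABCF2 in every library by a small margin. ABCC3, an exporter of glucuronide conjugates, followed at 34.3, 33.9 and 43.4 FPKM, and ABCF3 at 30.2, 31.8 and 29.5 FPKM. These 5 genes held 58.2% to 60.6% of the summed FPKM of all members in each library. A level of 10 FPKM or more was reached by 11 members in Parental 1 and by 12 in each resistant library. All 5 had less than a 1.5-fold difference between either resistant library and Parental 1. ABCF3 lies within the span of EIF2B5 on the same strand in the table, and OTUD4 overlaps ABCE1 on the opposite strand, so reads of these pairs may have been divided or dropped by the counting, whose strand setting is not given in the sources used here.

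**Figure D2:**
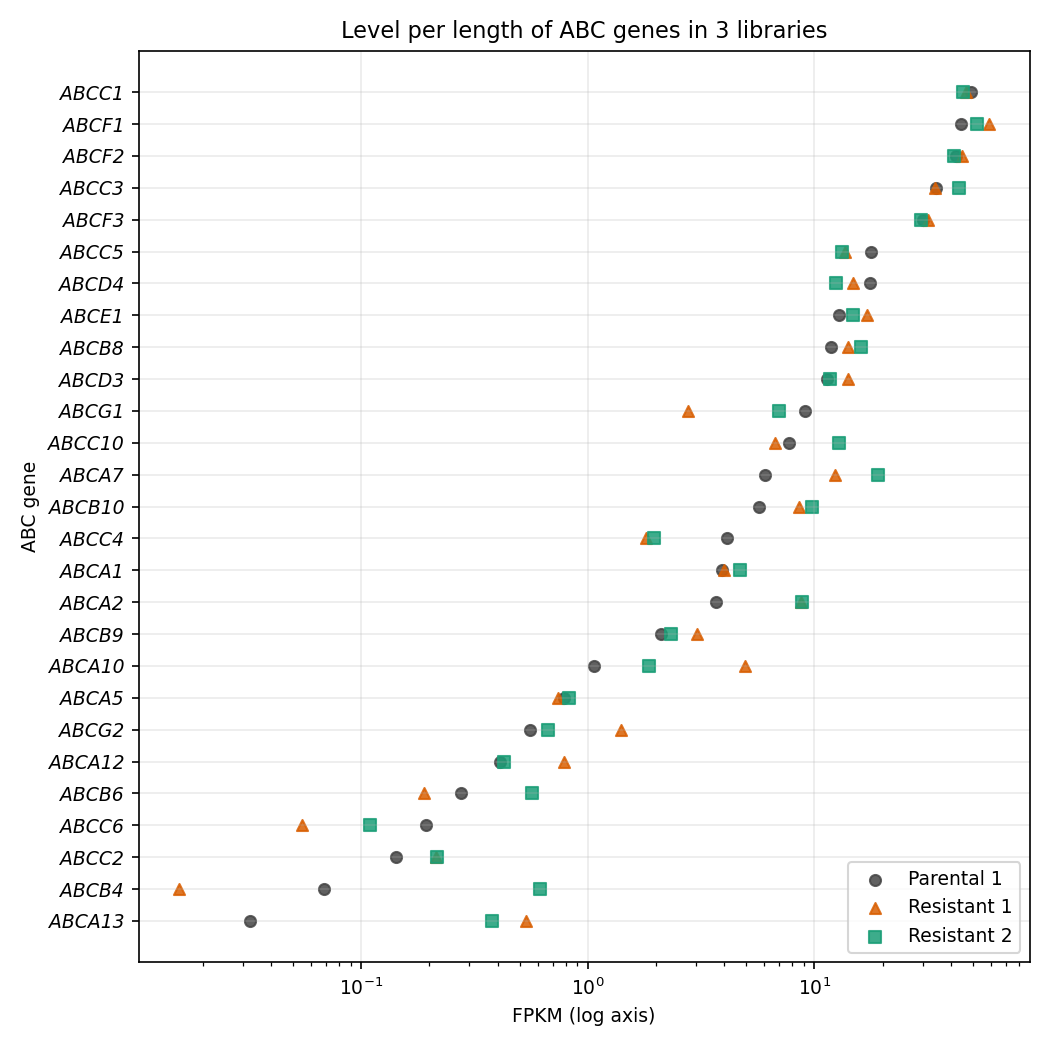
FPKM (log axis) of 27 of the 29 ABC genes with a sum of at least 30 reads, with 1 point for each of the libraries Parental 1, Resistant 1 and Resistant 2. ABCC1, ABCF1 and ABCF2 are at the top, at 41.2 to 59.1 FPKM, and the 3 points lie furthest apart for ABCA13 and ABCB4 at the bottom.

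The comparison of 5637GR with 5637P asks which genes differ in the resistant state. None of the 29 tested members had an adjusted p under 0.05 by edgeR's quasi-likelihood test, which called 78 of 14846 genes (0.525% of all genes). At an unadjusted p under 0.05 there were 5 members, which is 17.2% of the members against 9.62% of all genes. ABCA13, ABCA2, ABCA7 and ABCA10 were higher (4.84% of all genes) and ABCC4 was lower (4.78% of all genes). DESeq2 on the same counts called 1 member, ABCA13, against 1.67% of all genes. In data simulated with the same depth, every gene was given the common dispersion of the fit (0.0768). There the edgeR test recovered 48 of 100 genes changed 4-fold and 4 of 100 changed 2-fold, so a 2-fold difference was mostly not detectable. Genes of low mean CPM were left out of the changed set, so the recovery was not measured for members at low levels. A difference of at least 1.5-fold from Parental 1 in the same direction in both resistant libraries was seen for 6 members (20.7%, against 17.2% of all genes). The 4 higher ones (8.95% of all genes) were ABCA13, ABCA10, ABCA2 and ABCA7, all of the lipid-moving subfamily A, and the 2 lower ones (8.24% of all genes) were ABCC4 and ABCC6 of subfamily C.

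ABCA13 (ENSG00000179869, hg19 chromosome 7, 48211055 to 48687092, plus strand), the largest protein of subfamily A, had 8 reads in Parental 1, 145 in Resistant 1 and 113 in Resistant 2. These are 0.567, 8.88 and 6.51 CPM, so both resistant libraries were far above the parental one. The CPM ratio to Parental 1 was 15.6 (95% exact interval 7.73 to 36.9) in Resistant 1 and 11.5 (5.63 to 27.2) in Resistant 2, where the intervals cover counting error only. The log2 fold change was 3.74 ± 0.68 (SE, n = 1 parental and 2 resistant), with an adjusted p of 0.060 by edgeR's quasi-likelihood test and of 0.0024 by DESeq2. By group mean, the authors' values were 19.5 normalized counts in 5637P and 82.7 in 5637GR, a smaller log2 ratio of 2.03. The level remained low per length, at 0.0322, 0.533 and 0.377 FPKM.

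ABCA10 (ENSG00000154263, hg19 chromosome 17, 67143355 to 67240987, minus strand) belongs to a cluster of ABCA5-like genes on that chromosome. It had 98, 500 and 207 reads in Parental 1, Resistant 1 and Resistant 2, or 6.95, 30.6 and 11.9 CPM. Resistant 1 stood apart from both other libraries, and the 2 resistant libraries differed from each other by more than Resistant 2 differed from Parental 1. The log2 fold change was 1.61 ± 0.61 (SE), with an adjusted p of 0.441 by edgeR's quasi-likelihood test. The group means gave 89.9 and 234.7 normalized counts, a log2 ratio of 1.37. ABCA5, the next gene of the cluster, overlaps ABCA10 by 536 bases on the same strand and had 93, 96 and 118 reads, with a log2 fold change of -0.06. ABCA9 had 2 reads in every library and ABCA6 had 0, 8 and 2.

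ABCA2 (ENSG00000107331, hg19 chromosome 9, 139901686 to 139923367, minus strand), a transporter of endosomes and lysosomes, had 434, 1128 and 1249 reads. At 30.8 CPM in Parental 1 and 69.0 and 71.9 CPM in the resistant libraries, the 2 resistant values lay close together and above the parental one. The log2 fold change was 1.20 ± 0.35 (SE), with an adjusted p of 0.282 by edgeR's quasi-likelihood test. The authors' group means were closer to each other, at 642.8 normalized counts in 5637P and 843.5 in 5637GR, a log2 ratio of 0.39. The 20 nearest tested genes on the chromosome (10 on each side) had a median log2 fold change of 0.56, the second highest among the 29 members' neighbourhoods, and the part of this shift in the ABCA2 value was not tested.

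ABCA7 (ENSG00000064687, hg19 chromosome 19, 1040102 to 1065571, plus strand), a phospholipid exporter related to ABCA1, had 596, 1328 and 2274 reads, or 42.3, 81.3 and 130.9 CPM. Both resistant libraries were above Parental 1, and Resistant 2 was 1.61-fold above Resistant 1 (95% exact interval 1.50 to 1.72). The log2 fold change was 1.33 ± 0.42 (SE), with an adjusted p of 0.329 by edgeR's quasi-likelihood test, and the group means gave a log2 ratio of 0.94. Its 20 nearest genes had a median of 0.08. ABCA1, the exporter that loads cholesterol onto apolipoproteins, had 592, 662 and 864 reads and a log2 fold change of 0.10 ± 0.35 (SE). ABCA12, a lipid transporter of the skin barrier, had 54, 113 and 68 reads, and only Resistant 1 was away from Parental 1. The summed FPKM of the 11 members of subfamily A was 15.9 in Parental 1, 32.1 in Resistant 1 and 36.2 in Resistant 2. The median log2 fold change of its 7 tested genes was 1.20, beside 0.03 over all genes. The median of the same genes was 0.94 in Resistant 1 alone, 0.77 in Resistant 2 alone and 0.39 by the group means.

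**Figure D3:**
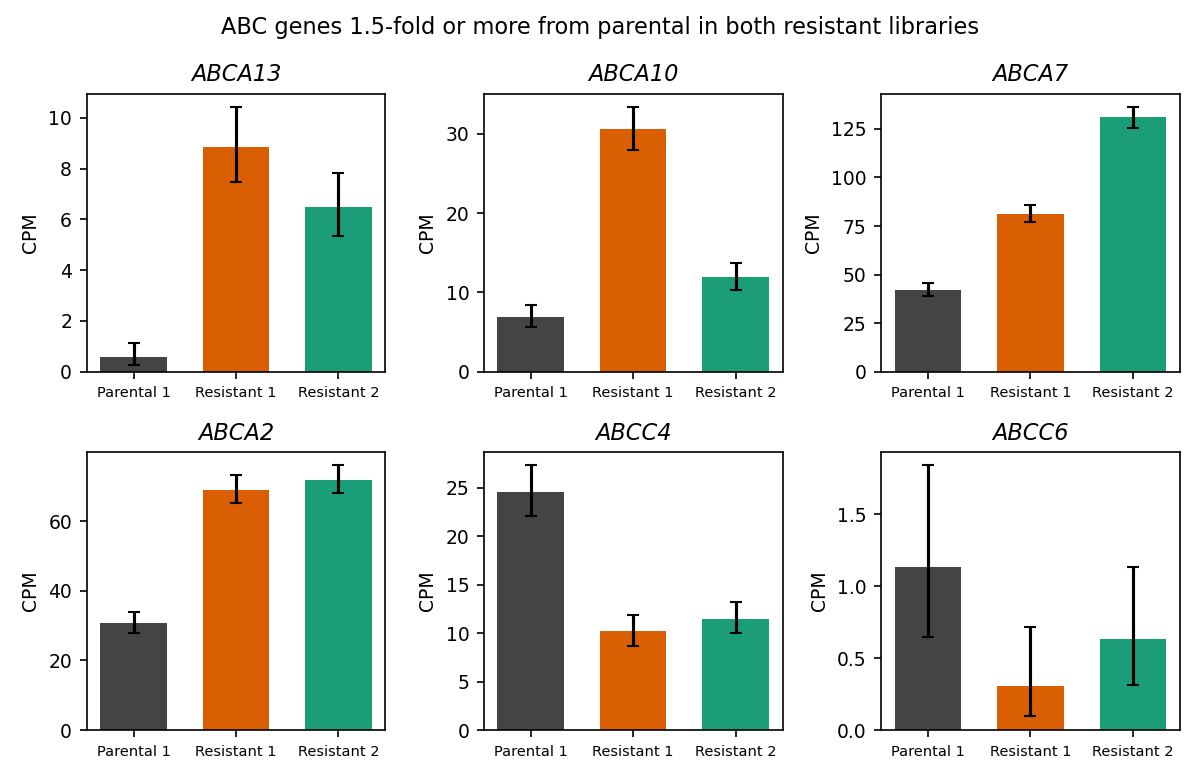
CPM of the 6 ABC genes at least 1.5-fold from Parental 1 in the same direction in both resistant libraries, 1 bar per library on an axis from 0, with exact 95% Poisson intervals that cover counting error only. ABCA13, ABCA10, ABCA2 and ABCA7 are higher in the resistant libraries and ABCC4 and ABCC6 are lower. The ratio of Resistant 2 to Resistant 1 is furthest from 1 for ABCA10 (0.389) and ABCC6 (2.07). For ABCC6 its 95% exact interval, 0.663 to 7.60, includes 1.

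Among the 7 tested drug and nucleotide exporters, ABCC4 had the largest difference from 5637P that was shared by both clones. ABCC4 (ENSG00000125257, hg19 chromosome 13, 95672083 to 95953687, minus strand), an exporter of cyclic nucleotides and nucleotide analogues, had 347 reads in Parental 1, 167 in Resistant 1 and 200 in Resistant 2. The levels were 24.6, 10.2 and 11.5 CPM, with both resistant libraries below the parental one and close to each other. The ratio to Parental 1 was 0.415 (95% exact interval 0.343 to 0.501) in Resistant 1 and 0.468 (0.391 to 0.559) in Resistant 2. The log2 fold change was -1.18 ± 0.38 (SE), with an adjusted p of 0.349 by edgeR's quasi-likelihood test and an unadjusted p of 0.014 in the same fit. The group means, 394.4 normalized counts in 5637P and 183.6 in 5637GR, gave a log2 ratio of -1.10. The 20 nearest genes had a median of -0.06.

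ABCC5 (ENSG00000114770, hg19 chromosome 3, 183637722 to 183735803, minus strand), a second exporter of cyclic nucleotides and nucleotide analogues, had 1525, 1273 and 1362 reads, or 108, 77.9 and 78.4 CPM. Both resistant libraries were lower by a similar amount, at 0.721 (95% exact interval 0.668 to 0.777) and 0.725 (0.674 to 0.781) of Parental 1. The log2 fold change of -0.47 ± 0.33 (SE) was within the spread that the fit allows, with an adjusted p of 0.747 by edgeR's quasi-likelihood test. ABCC11, the third of these exporters, had 9 reads in Parental 1 and 0 and 1 in the resistant libraries, too few for the tests, and group means of 6.21 and 1.06 normalized counts. ABCC11 is overlapped by LONP2 on the opposite strand. Of the 7 tested drug and nucleotide exporters, 2 were above Parental 1 in both resistant libraries and 3 were below. Among all genes, 35.2% were above it in both and 34.5% below. The median log2 fold change of the 7 exporters was 0.12, beside 0.03 over all genes.

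Among the general drug exporters, ABCC1 had 4679, 4868 and 5186 reads, or 332, 298 and 299 CPM, with a log2 fold change of -0.15 ± 0.35 (SE). ABCC3 had 2835, 3068 and 4336 reads, and its resistant libraries lay on either side of Parental 1, at 188 and 250 CPM against 201 CPM. ABCC10, a broad drug exporter of subfamily C, had 569, 540 and 1145 reads, so that Resistant 2 was at 1.63 (95% exact interval 1.48 to 1.81) of Parental 1 while Resistant 1 was at 0.819 (0.727 to 0.923). ABCG2, the breast cancer resistance protein, had 36, 99 and 52 reads, and Resistant 1 was 2.37-fold (1.61 to 3.58) and Resistant 2 1.17-fold (0.752 to 1.85) of Parental 1. The 20 nearest genes of ABCG2, on chromosome 4, had a median log2 fold change of 0.62, beside 0.82 ± 0.64 (SE) for ABCG2 itself. ABCC2, the canalicular exporter of conjugates, was read only 11, 18 and 20 times. The lowest adjusted p of these 5 genes was 0.792, for ABCG2 (edgeR's quasi-likelihood test). Over the 8 listed exporters with a row the summed FPKM was 114, 104 and 117 in Parental 1, Resistant 1 and Resistant 2. ABCC6, the remaining gene lower in both libraries, acts mainly in liver in the control of calcification and had only 16, 5 and 11 reads. The interval of its Resistant 2 ratio, 0.558 (0.234 to 1.28), included 1, and it shares near-identical sequence with pseudogenes, so its counts are uncertain.

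Between the 2 resistant clones, 10 of the 29 members were at least 1.5-fold apart (34.5%, against 28.1% of all genes). The median size of the log2 difference between the clones was 0.29 for the members and 0.35 over all genes. ABCB4, the phospholipid floppase of bile, had 4 reads in Parental 1, 1 in Resistant 1 and 43 in Resistant 2. The ratio of Resistant 2 to Parental 1 was 8.73 (95% exact interval 3.17 to 33.5), and Resistant 1 was within counting error of Parental 1 at 0.216 (0.00438 to 2.18). Its group means, 3.47 and 21.7 normalized counts, rest in part on that 1 library. ABCG1 (ENSG00000160179, hg19 chromosome 21, 43619799 to 43717354, plus strand), which exports cholesterol to lipoproteins, had 458, 153 and 422 reads, or 32.5, 9.36 and 24.3 CPM. Resistant 1 was at 0.288 (0.239 to 0.347) of Parental 1 and Resistant 2 at 0.748 (0.654 to 0.856). Its log2 fold change was -0.95 ± 0.53 (SE), with an adjusted p of 0.649 by edgeR's quasi-likelihood test. The 20 nearest genes of ABCG1 had a median log2 fold change of -0.49, the lowest among the members' neighbourhoods, and the part of this shift in the ABCG1 value was not tested. ABCB6 had 12, 9 and 30 reads, but its span is almost wholly shared with ATG9A on the same strand, which had 1228, 1496 and 2298 reads.

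**Figure D4:**
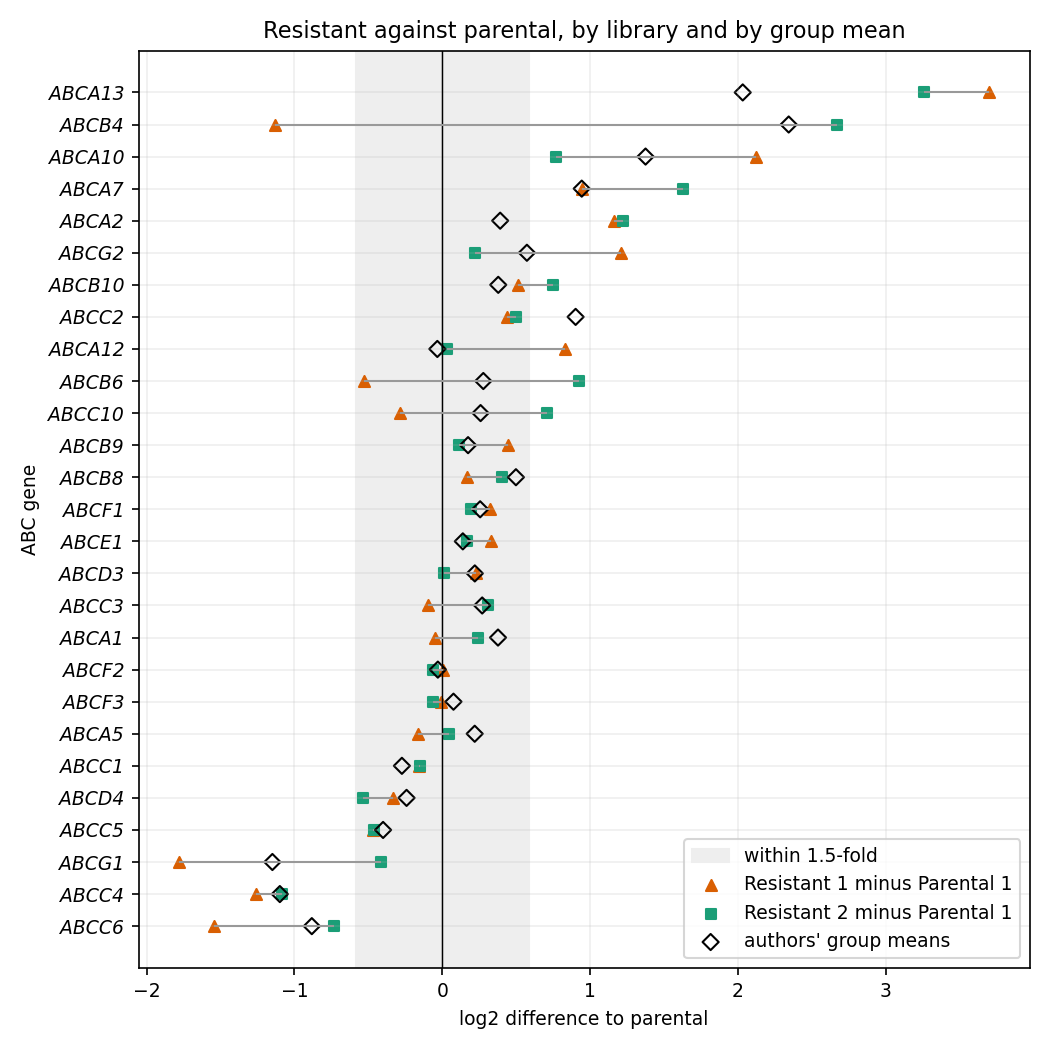
Log2 difference from 5637P for 27 of the 29 tested ABC genes, with triangles for Resistant 1 and squares for Resistant 2 against Parental 1 (log2 CPM with a prior count of 2), open diamonds for the log2 ratio of group means (pseudocount of 1), and grey shading for differences under 1.5-fold. The widest gaps between triangle and square are those of ABCB4, ABCB6, ABCG1 and ABCA10, and the diamonds of ABCA13 and ABCA2 lie nearer to 0 than both libraries.

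Genes of organelles and of the ribosome showed small differences. The mitochondrial ABCB8 had 805, 1046 and 1310 reads. ABCB10, a mitochondrial protein of haem synthesis, had 317, 524 and 657 reads, with both resistant libraries higher and a log2 fold change of 0.64 ± 0.37 (SE, adjusted p = 0.668 by edgeR's quasi-likelihood test). The peptide transporter of lysosomes, ABCB9, had 184, 291 and 245 reads. In peroxisomes, ABCD3 had 720, 977 and 895 reads. ABCD4, which works in lysosomal cobalamin export, had 769, 707 and 652 reads and a log2 fold change of -0.43 ± 0.34 (SE). For the ribosome recycling factor ABCE1 and ABCF1, ABCF2 and ABCF3 the log2 fold change ranged from -0.03 to 0.26.

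Over all 29 tested members, the median log2 fold change was 0.26, beside 0.03 over all 14846 genes, and 19 members were above 0 (65.5%, against 52.1% of all genes). The median came to 0.002 against Parental 1 in Resistant 1 and to 0.20 in Resistant 2. Both resistant libraries were on the same side of Parental 1 for 22 members (75.9%, against 69.6% of all genes). In both, 14 members lay above Parental 1 (48.3%, against 35.2% of all genes) and 8 lay below (27.6%, against 34.5%). By the group means, 5 of 28 members were at least 1.5-fold higher in 5637GR (17.9%, against 9.04% of all genes) and 2 were lower (7.14%, against 9.51%). The higher ones were ABCA10, ABCA13, ABCA7, ABCB4 and ABCC2, and the lower ones ABCC4 and ABCG1. ABCA13, ABCA10, ABCA7 and ABCC4 thus passed 1.5-fold both by the group means and in each library, whereas ABCA2 and ABCC6 did so in the libraries alone. ABCC6 had a mean under the minimum of 10 for the group means.

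Of the 29 members, 20 had a fold change on the same side of 0 as the median of their 20 nearest genes. In 8 neighbourhoods that median was beyond 0.3 in size, and 5 of these members were on its side: ABCA2, ABCA10, ABCB4 and ABCG2 higher and ABCG1 lower. Neither count was made over all genes, so neither can be called particular to the members. ABCA13, ABCA7 and ABCC4 had neighbourhood medians of 0.14, 0.08 and -0.06, small beside their own values. DNA copy number was not measured, so its part in these values was not tested.

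**Figure D5:**
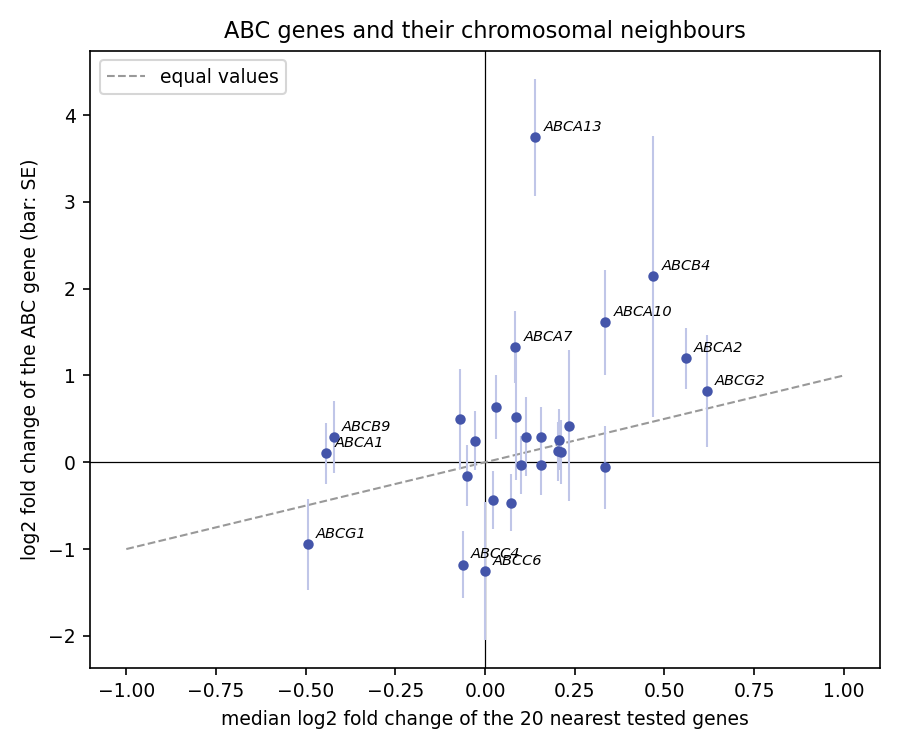
Log2 fold change of each of 27 of the 29 tested ABC genes with its SE (y axis) against the median log2 fold change of its 20 nearest tested genes on the chromosome (x axis), with a dashed line of equal values. ABCA13 is far above the line at 3.74 against 0.14, and ABCG1 and ABCG2 lie at the left and right ends at -0.49 and 0.62.

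ABC proteins under other symbols and genes that work with the members were read in the same fit. TAP1 and TAP2, which carry peptides for antigen presentation, had 209, 406 and 553 and 88, 194 and 196 reads, both at least 1.5-fold higher in each resistant library. Their adjusted p was 0.498 and 0.603 by edgeR's quasi-likelihood test, and the group means gave log2 ratios of only 0.13 and 0.04. CFTR, a chloride channel, had 0, 1 and 1 reads. None of the 17 tested regulators of ABC genes passed the test. The sterol-sensing receptors NR1H2 and NR1H3, which drive ABCA1 and ABCG1, had log2 fold changes of 0.17 and 0.03. NR1H2 went from 71.3 CPM in Parental 1 down to 56.2 in Resistant 1 and up to 103.9 in Resistant 2. Only SREBF2 and RXRA of the 17 tested regulators were at least 1.5-fold lower in both resistant libraries, against 8.24% of all genes. None was that much higher in both, against 8.95% of all genes. By the group means the log2 ratios of SREBF2 and RXRA were -0.51 and -0.31, each under 1.5-fold. SREBF2, the main activator of cholesterol synthesis genes, had a log2 fold change of -0.91 ± 0.35 (SE, adjusted p = 0.453 by edgeR's quasi-likelihood test). RXRA fell from 707 CPM to 437 and 464 CPM, a log2 fold change of -0.65 ± 0.34 (SE, adjusted p = 0.623 by the same test). Of 5 listed LXR target genes outside the family none passed. In both libraries 3 of them (MYLIP, LPCAT3 and SCD) were at least 1.5-fold lower, against 8.24% of all genes. APOE, with 12, 24 and 82 reads, was at least 1.5-fold higher in both, against 8.95% of all genes. The group means gave MYLIP, LPCAT3 and SCD log2 ratios of -0.56, -0.56 and -0.47, each under 1.5-fold. For APOE they gave 0.91. The vault protein MVP had 324, 594 and 857 reads and a log2 fold change of 0.90 ± 0.38 (SE), and none of the 4 tested genes of its list of other efflux proteins passed. Among 8 tested partner genes none passed either. In bulk RNA of a clone, fewer expressing cells and less RNA per cell cannot be told apart.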

How the data were processed

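RNA of single-cell clones of the parental and the gemcitabine-resistant line was sequenced by a service provider (Novogene) after poly-A selection. The authors deposited, per gene, raw read counts and FPKM of each library and, as a signal, group means of counts scaled by size factors. The submitters' processing notes name hg19 and CASAVA 1.8, while the aligner, the counter and the strand setting are not given in the sources used here. The 6 value columns of libraries without a sample label here were not used, nor were the deposited fold changes and p-values, which hold the authors' own comparison.

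Genes with a sum of at least 30 counts over the 3 libraries were scaled by TMM and tested with edgeR 4.0.16 (R 4.3.3), quasi-likelihood, 1 parental against 2 resistant libraries, 1 residual degree of freedom, with Benjamini-Hochberg adjustment. The SE is the log2 fold change divided by the root of F. DESeq2 1.42.0 was an alternative. Ratios of 2 libraries have exact binomial intervals, and log2 CPM used a prior count of 2. Group means entered with a pseudocount of 1 and a minimum mean of 10. FPKM was used to compare genes. Its values, sums and counts are also printed by library, as deposited and without the TMM factors. The labels give separate samples. The spread behind each edgeR SE and p-value pools the gene's own clones (1 residual degree of freedom) with all genes tested (7.40 prior degrees of freedom). It is therefore mostly not the clone-to-clone spread of that gene.

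Genes named with values were those past the test, those at least 1.5-fold from Parental 1 in both resistant libraries, the drug exporters and the 5 highest by FPKM. ABCG1, ABCB4 and other members were added for their role or after their values were seen. The values of 2 tested members are counted in the totals but not reported here. Members and lists were chosen with earlier results of these data known. The fit was tested on simulated counts over 14642 genes. Python 3.11.15, pandas 2.3.3, scipy 1.17.1 and matplotlib 3.10.9 were used.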

Additional observations from a re-analysis of the deposited data

How the results depend on the processing

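With 2 resistant and 1 parental library, leaving out a resistant library leaves 1 against 1, a value with no test, and the parental library could not be left out. No paired analysis was possible because the study describes independently derived clones, and no pairs between the groups are given. Where edgeR called 0 of 29 members, 1 member (ABCA13) was called with DESeq2 size factors, without the filter, with a sum of at least 150 counts, with DESeq2 and at an adjusted p under 0.1. Over all genes edgeR called 78, against 145 with DESeq2 size factors, 534 without the filter and 248 with DESeq2. The adjusted p of ABCA13 ranged from 4.1e-05 to 0.060 (edgeR and DESeq2). With 1 resistant library at a time, 6 to 9 members were at least 1.5-fold higher than Parental 1 against 4 in both, and 2 to 4 lower against 2. The lower count was 4 without the filter and 1 (ABCC4) with a sum of at least 150. The median log2 fold change of 0.26 became 0.0017 without Resistant 2 and 0.20 without Resistant 1. By the group means, 9 members were at least 1.5-fold higher and 7 lower without the filter, and 3 were higher at a mean of at least 50. With 1 resistant library at a time, the log2 fold change ranged from -0.29 to 0.71 for ABCC10, from -0.10 to 0.31 for ABCC3 and from -0.062 to 0.0017 for ABCF2, turning its direction without Resistant 2. It also turned for ABCC3 (-0.090) with the median of its neighbours subtracted, and for ABCF3 (0.076) by the group means. The cause was not tested. Of the alternatives for single genes, 96 counted as unchanged, 13 moved the value without a change of direction and 5 turned its direction. In the other 4, ABCA13 was newly called while its log2 fold change stayed at 3.73 to 3.76. For settings with a test, unchanged means only that the gene's call stayed the same. For the other settings it means that the value stayed within its limits. At this depth a gene of under 30 reads in all was not compared.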

Other observations

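Rows named after ABC genes that are no protein-coding members held almost no reads. The pseudogene ABCA11P had 4, 11 and 4 reads in Parental 1, Resistant 1 and Resistant 2, and ABCA17P had 4, 1 and 2. ABCC6P2, a pseudogene of ABCC6, had 1, 0 and 0 reads. The antisense genes ABCC5-AS1 and ABCA9-AS1 had 0 reads in every library.

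SLC47A1, a proton-coupled efflux transporter for organic cations that is no ABC protein, had 14 reads in Parental 1 and 1 in each resistant library, while the group means given by the authors were 4.80 in 5637P and 3.71 in 5637GR, in normalized counts. It was chosen after its values were seen.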
